A study of Rattus norvegicus with 8 samples.

Results

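The comparison described here is repair of the injured medial collateral ligament, on the inner side of the rat knee, 3 weeks after surgery in animals that bore weight normally. Its members are the 2 arrays titled loaded healing and the 2 titled loaded control, out of 8 arrays in the series, with all 8740 probe sets that are not control probe sets. Loaded healing rats had the ligament disrupted on both sides, and loaded control rats had a sham operation. Neither group was suspended. The other 4 arrays came from rats whose hind limbs were unloaded by tail suspension: unloaded control rats had no operation, and unloaded healing rats had the bilateral disruption and were suspended from 24 hours after it. Those 4 arrays entered the estimate of the spread and the steps described below that use signal over all 8 arrays. Such steps are the offset, the intensity filter and the choice of a gene's brightest probe set. The difference itself was taken between the loaded arrays alone. The labels used here state neither strain, sex and age nor how many animals stand behind an array. Nothing says that the 2 arrays of a group came from separate animals, so the p-values measure the spread between these arrays, which may be technical.

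The medial collateral ligament is a band of parallel type I collagen fibres made by fibroblasts, with small leucine-rich proteoglycans and cartilage oligomeric matrix protein organising the fibrils. After rupture, the gap fills with a provisional matrix rich in fibronectin, macrophages clear debris, and a scar is laid down and remodelled by matrix metalloproteinases and lysosomal cathepsins. On this type of array a probe set is a group of short oligonucleotides drawn from one transcript sequence, and a gene can have several probe sets. Whether those agree is a check on a gene's call that needs no further animals.

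Each value is an intensity in array units. The 8 arrays had been brought to a common level before deposit, with trimmed means of 500.3 to 500.6, and the 4 loaded arrays had median intensities of 238.7 to 282.3. Log2 values correlated at 0.825 between the 2 control arrays and 0.841 between the 2 healing arrays, against 0.770 to 0.826 between arrays of different groups. The array's own control probe sets were not level between the groups. The 3′ probe set for beta-actin read 4393 and 4955 in control and 1353 and 1597 in healing ligament, and that for GAPDH read 2278 and 2335 against 1039 and 843. All 6 probe sets for the bacterial and phage spike-ins were also lower in both healing arrays than in both control arrays, as in BioC-3, with 9883 and 11174 against 8125 and 7870. Scaling to these spike-ins moved the median log2 difference of all tested probe sets from −0.03 to 0.34, so the median of a gene group is to be read against that shift; the medians of all 31 groups lay above 0 with it. Where it turned the sign of a group's median or changed its count of falls, both values are given below. The 5′ probe set for beta-actin read 0.36 and 0.39 of the 3′ one in control arrays and 0.36 and 0.24 in healing arrays 1 and 2. For GAPDH the ratios were 0.90 and 0.79 against 0.73 and 0.86. How RNA quality bears on differences between probe sets of a gene was not tested.

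Signal was looked at for 15 fibroblast genes on the array, which cannot tell ligament from other connective tissue. All 15 passed the intensity filter, and Col1a1, a chain of type I collagen, read 75949 and 59573 in control and 84666 and 73916 in healing arrays. The tendon factors Scx, Mkx and Tnmd are not among the genes that the probe table names. Skeletal muscle markers were also present, with intensities summed over 34 genes of 42592 and 40902 in control against 56741 and 51715 in healing ligament. In a tissue sample, more cells of a type and more RNA per cell cannot be told apart.

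Healing and sham ligament differed at 106 of 5244 tested probe sets (2.02%), of which 54 rose (1.03%) and 52 fell (0.992%) after injury. The test was limma on log2(intensity + 45.8), with the dimmest 40% of probe sets left out and a Benjamini-Hochberg adjusted p under 0.05. At an unadjusted p under 0.05 there were 614. The 2 healing arrays lay wholly above or below the 2 control arrays at all 106, but also at 39.7% of all tested probe sets. With spike-in scaling the same number, 106, divided as 84 higher and 22 lower. Leaving out control array 1, control array 2, healing array 1 or healing array 2 left 37, 32, 27 and 36 calls, so the count rests on having both arrays of each group. Of the 106 called probe sets, 17 passed in all 4 of those fits, and 6 of these name 1 gene: Spp1, Lyz2, Psap, Rpsa, RT1-Da and the brightest of Sparc. The others have several symbols or none.

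**Figure D1:**
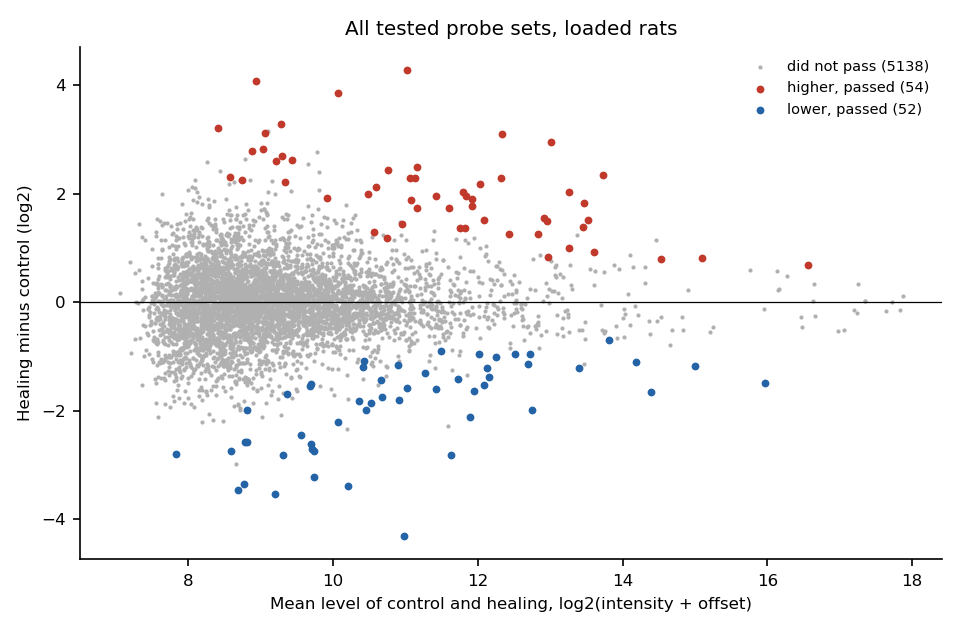
Difference between healing and control ligament (y axis, log2) against the mean level of both groups (x axis, log2 of intensity plus offset) for each of the 5244 tested probe sets, 2 arrays a group. Red points rose (54) and blue points fell (52); called points appear over nearly the whole range of levels, with small differences called only at high levels.

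The largest rise was in Spp1, which codes for osteopontin, a secreted phosphoprotein of bone and of macrophages. Its intensity was 407 and 454 in control and 11380.1 and 7322 in healing ligament, a log2 difference of 4.27 ± 0.33 (SE, n = 2 arrays a group here and below; adjusted p = 0.000223). Fold values below are on the log2(intensity + 45.8) scale, which understates change in dim probe sets; for Spp1 it was 19.3-fold. Lyz2, the lysozyme of macrophages and neutrophils, went from 2144 and 1392 to 16260.4 and 13978, or 8.52-fold (adjusted p = 0.000223). Both genes stood well clear of the control arrays in each healing array. Cxcl13, a chemokine that attracts B lymphocytes, was below the array median in both control arrays at 95.9 and 232 and reached 2185 and 1644 after injury, 9.78-fold higher (adjusted p = 0.00694).

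Further rises among the 10 largest on probe sets that name 1 gene were in 2 metabolic enzymes and a leukocyte protein. Hsd3b7, an enzyme of bile acid synthesis that acts on oxidised cholesterol, went from 129 and 145 to 1754 and 1326 (adjusted p = 0.0373). Spn, which codes for the leukocyte surface sialoprotein CD43, went from 171 and 102 to 1409 and 1007 (adjusted p = 0.0492). Odc1, the first enzyme of polyamine synthesis, went from 186 and 218 to 1995 and 1208 on one probe set (adjusted p = 0.0305). None of these 3 passed in any fit that left out 1 array, and Spn passed in 4 of the 11 other settings that tested it.

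**Figure D2:**
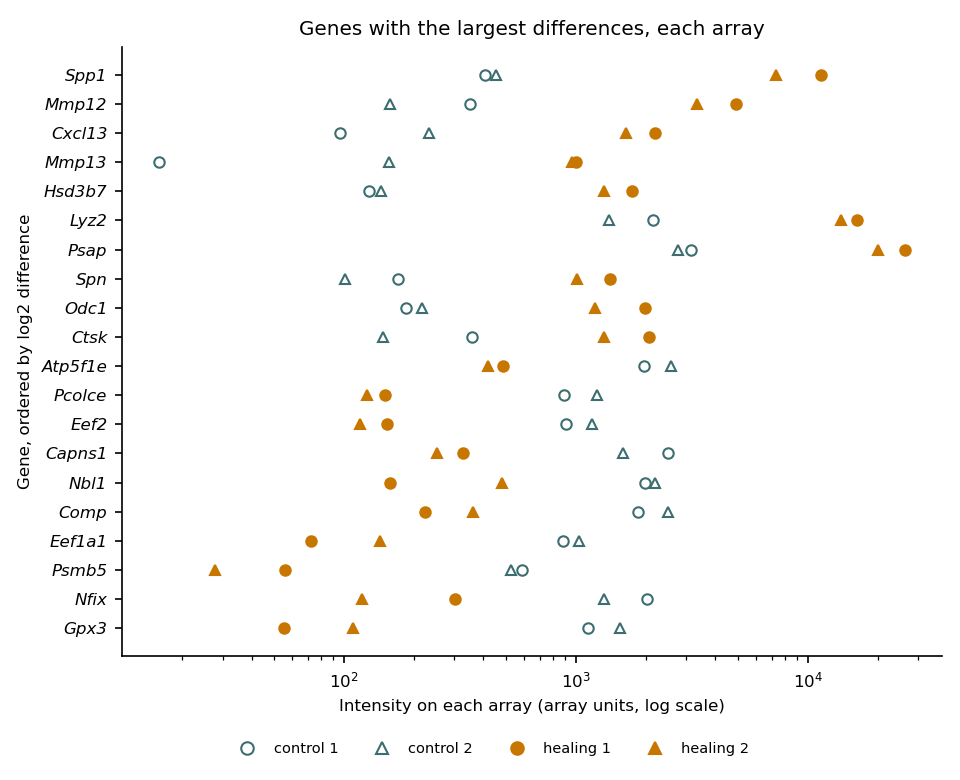
Intensity on each of the 4 arrays (x axis, array units, log scale) for the 10 largest rises and the 10 largest falls past the threshold among probe sets that name 1 gene (y axis, ordered by log2 difference). Open symbols are control arrays and filled symbols healing arrays; for each gene the 2 filled symbols lie on one side of the 2 open ones.

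Gene groups are described by each gene's brightest tested probe set unless another is named, and a gene can stand in more than 1 group. Brightness was ranked with the healing arrays included, which favours probe sets that rise over those that fall. On any probe set that names a single gene, 39 genes rose and 26 fell. On brightest probe sets, 33 were higher and 15 lower. Counts of rises and falls in a group are to be read with that in mind, and the share due to the ranking was not tested. No group was tested as a set. Matrix-degrading enzymes and their inhibitors were described as 1 group. Of 13 tested metalloproteinase and inhibitor genes, 2 rose and 0 fell, where 1.49% of genes were called on their brightest probe set over the whole array (1.02% higher, 0.465% lower); 1 more fell and 3 more rose at an unadjusted p under 0.05. Their median log2 difference was 0.59, against −0.03 over all probe sets; it was 0.31 with an offset 4 times as large and 0.32 with no intensity filter. Mmp12, the macrophage elastase, read 350 and 157 in control and 4904 and 3319 in healing ligament, 14.4-fold higher (adjusted p = 0.00212). Mmp13, the collagenase that cleaves fibrillar collagen, read 16 and 157 against 1004 and 963, a log2 difference of 3.20 ± 0.63 (adjusted p = 0.0340). Mmp13 kept its call in 1 of the 4 fits without an array, and Mmp12 in 3. Mmp2, Mmp14 and Mmp3 had log2 differences of 1.11, 0.84 and 0.72 without passing (adjusted p = 0.192, 0.559 and 0.353), and each was higher in both healing arrays. The inhibitor Timp1 read 1665 and 1527 against 2482 and 2476 (adjusted p = 0.315), and Timp3 overlapped between the groups.

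Mmp12 and Mmp13 lie in one cluster on rat chromosome 8, and both rose from low levels, so their promoters are shown. The sequences are the 250 bases before each gene's annotated start in RefSeq (build GRCr8), on the plus strand at chr8:12866402-12866651 for Mmp12 and chr8:12782579-12782828 for Mmp13. Capitals mark the one motif searched, TGANTCA, the element bound by AP-1 factors, whose letters read alike on both strands.
Mmp12: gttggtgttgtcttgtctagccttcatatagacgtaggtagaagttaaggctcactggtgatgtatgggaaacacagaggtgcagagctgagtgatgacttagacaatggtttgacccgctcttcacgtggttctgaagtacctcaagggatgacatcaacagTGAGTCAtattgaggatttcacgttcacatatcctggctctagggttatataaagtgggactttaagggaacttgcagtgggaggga
Mmp13: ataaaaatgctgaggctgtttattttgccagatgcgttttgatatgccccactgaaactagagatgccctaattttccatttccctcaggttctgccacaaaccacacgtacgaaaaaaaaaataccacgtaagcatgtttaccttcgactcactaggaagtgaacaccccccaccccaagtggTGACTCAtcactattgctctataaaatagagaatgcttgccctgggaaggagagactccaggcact
The motif begins 87 bases before the start of Mmp12 and 66 before that of Mmp13. It occurs in 6.34% of the 33469 promoter windows of the same length. Of 59 named genes with a call, 52 had a promoter in the table and 5 of those held the motif (9.62%): these 2 and Capns1, Hsp90ab1 and Rps16, all of which fell. A match describes letters in a window and does not show that a factor binds there.

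Of 26 tested cathepsin and lysosomal genes, 4 rose and 0 fell, and the median was 0.48. Positive log2 differences, called or not, were found in 22 of them, against 2493 of all 5244 probe sets. Ctsk, the collagen-degrading cathepsin of osteoclasts, read 356 and 148 in control and 2076 and 1317 in healing ligament, 6.10-fold higher (adjusted p = 0.0266). Ctss, the cathepsin that trims the invariant chain in antigen-presenting cells, read 673 in both control arrays and 2917 and 2736 after injury, 3.99-fold higher (adjusted p = 0.00422). The replicates of Ctss were nearly equal within each group, while the control arrays of Ctsk differed more than 2-fold. Psap, the precursor of the saposins that help degrade sphingolipids, had the smallest p of all probe sets (1.61e-04 adjusted), at 3151 and 2747 against 26190.2 and 20143. Atp6v0c, a proton channel subunit of the vacuolar ATPase, rose 2.73-fold (adjusted p = 0.0449). Ctsb, Cd63 and Cstb were higher in both healing arrays by 0.99, 1.26 and 1.19 in log2 and did not pass, and Ctsl and Ctsh had log2 differences of 0.09 and −0.02.

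Among 18 tested macrophage and myeloid genes, 3 rose and 0 fell, with a median of −0.03 (0.34 with spike-in scaling, which is where all probe sets then lie). The 3 were Lyz2, Apoe and Lgals3. Apoe, the lipid carrier that macrophages secrete, read 6287 and 5667 in control and 22010 and 20531.1 in healing arrays, 3.54-fold higher (adjusted p = 0.00393). Lgals3, the macrophage lectin galectin-3, read 1152 and 1262 against 4025 and 4218, 3.33-fold higher (adjusted p = 0.0123). Intensities summed over the list were 17501 and 16684 in control and 50359 and 47734 in healing ligament, and 41.2% of that sum came from 1 gene. Other leukocyte genes did not pass: the pan-leukocyte phosphatase Ptprc read 727 and 834 against 954 and 719, the allograft inflammatory factor Aif1 532 and 436 against 496 and 414, and the lipopolysaccharide receptor Cd14 1119 and 1742 against 986 and 1392. The groups overlapped for all 3. Cyba, Cd53 and Cd48 had log2 differences of 1.80, 1.71 and 1.54 and did not pass either (adjusted p = 0.267, 0.444 and 0.357).

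Antigen presentation showed 2 rises and 0 falls among 18 tested genes, with a median of 0.04. B2m, the light chain of MHC class I, read 2012 and 1855 in control and 10461.9 and 7551 in healing ligament, 4.52-fold higher (adjusted p = 0.0126). RT1-Da, the alpha chain of a rat MHC class II molecule, rose 3.85-fold on its brighter probe set (adjusted p = 0.00234). The class II companions were not alike: RT1-DMb was higher in both healing arrays (log2 difference 1.83, adjusted p = 0.160), while the invariant chain Cd74, RT1-Ba and RT1-Db1 had differences of 0.07, −0.21 and −0.16. A dimmer probe set of Cd74 read 679 and 686 against 2894 and 1611 and did not pass (adjusted p = 0.401). Of 37 tested cytokine, chemokine and receptor genes, Cxcl13 was the 1 that rose, 0 fell, and the median was −0.33, which turned to 0.06 with spike-in scaling. Pf4, a platelet chemokine outside this list, also rose on its only tested probe set, with a log2 difference of 1.29. That call held in 5 of 12 other settings. The monocyte chemokine Ccl2 read 803 and 510 against 1942 and 1601 (adjusted p = 0.138). Complement and coagulation genes gave 0 calls in limma among 25 tested, with 1 higher and 1 lower at an unadjusted p under 0.05. Lymphocyte and mast cell markers gave 0 calls among 17, also at an unadjusted p under 0.05.

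The collagen genes themselves did not pass on their brightest probe sets. Among 10 tested, limma called 0, with 3 higher and 0 lower at an unadjusted p under 0.05, and the median was 0.26. Col3a1, the collagen of early scar, read 3172 and 3208 in control and 6629 and 5377 in healing ligament, a log2 difference of 0.89 ± 0.23 (adjusted p = 0.111). Col5a2, which sets fibril diameter with type I collagen, read 586 and 597 against 1813 and 1588 (1.45 ± 0.40, adjusted p = 0.135). Col1a2 read 13164 and 10799 against 21950.2 and 16673 (adjusted p = 0.148). These 3 were higher in both healing arrays on these probe sets, but a dimmer one of Col3a1 was lower in both, at 1330.1 and 1542 against 875 and 872 (adjusted p = 0.500). On its only probe set, Col5a1 was also lower in both, at 1821 and 1751 against 1321 and 1369 (adjusted p = 0.745).

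Genes that process or organise collagen included falls. Of 8 tested genes for collagen folding, processing and crosslinking, 0 rose and 2 fell, with a median of −0.29 that became 0.10 with spike-in scaling, where 1 fell. Pcolce, which enhances removal of the procollagen C-propeptide, read 893 and 1236 in control and 151 and 126 in healing ligament, a log2 difference of −2.57 ± 0.46 (adjusted p = 0.0230). Ppib, a prolyl isomerase of the endoplasmic reticulum that assists collagen folding, read 1266 and 1465 against 563 and 352 (−1.52 ± 0.33, adjusted p = 0.0499). It was the 1 fall, with 0 rises, among 26 heat shock proteins and chaperones, whose median was −0.12; with spike-in scaling 0 of these passed and the median was 0.23.

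Of 31 tested proteoglycan and matrix glycoprotein genes, 3 rose and 3 fell, and the median was 0.10. Apart from Spp1, the rises were Sparcl1 and Fn1. Sparcl1, an anti-adhesive relative of Sparc, read 140 and 264 in control and 1869 and 1061 after injury, 6.07-fold higher (adjusted p = 0.0431). Fn1, fibronectin, read 2209 and 2244 against 6587 and 5062 on its brightest probe set, 2.56-fold higher (adjusted p = 0.0261). The falls were Comp, Sparc and Bgn, which were also the 3 falls, with 0 rises, among the 15 fibroblast markers; with spike-in scaling 2 falls passed in each of these groups. Comp, the pentameric protein that bridges collagen fibrils, read 1860 and 2506 in control and 223 and 361 in healing ligament, 6.67-fold lower (adjusted p = 0.0134). Sparc, a collagen-binding glycoprotein, read 37960.1 and 38170 against 12677 and 11370.4, 3.16-fold lower (adjusted p = 0.00121), and Bgn, the proteoglycan biglycan, 8014 and 6697 against 3379 and 2286, 2.61-fold lower (adjusted p = 0.0232). The related proteoglycans decorin (Dcn) and fibromodulin (Fmod) were lower in both healing arrays without passing, with log2 differences of −0.88 and −1.08 (adjusted p = 0.267 and 0.225). The second of 4 Dcn probe sets was instead higher in both, at 1470 and 1273 against 2490 and 2350 (adjusted p = 0.327), while both Fmod probe sets were lower. Lumican (Lum), of the same family, was higher in both, at 866 and 826 against 2047 and 1826 (adjusted p = 0.186), as was periostin (Postn), at 406 and 381 against 1774 and 1180.2 (adjusted p = 0.200).

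Bone and cartilage markers overlapped with the groups above: 3 of 9 tested genes rose, and these were Spp1, Mmp13 and Ctsk, with a median of 0.19. Of 19 such genes on the array only these 9 got through the intensity filter. Mmp13, at 16 and 157 in control arrays, may have entered through its healing arrays, so the count and median are not free of that choice. Other bone and cartilage genes did not pass the threshold. The osteoclast phosphatase Acp5 read 877 and 527 against 703 and 766, the bone phosphatase Alpl 6511 and 4572 against 6991 and 5566, and hypertrophic cartilage collagen Col10a1 1219 and 1131 against 1041 and 1209. The groups overlapped for all 3.

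Growth factor signalling gave 0 rises and 2 falls among 48 tested genes, both of them secreted inhibitors, with a median of −0.13 that became 0.24 with spike-in scaling. Nbl1, an antagonist of bone morphogenetic proteins, read 1989 and 2201 in control and 159 and 483 in healing ligament, 6.50-fold lower (adjusted p = 0.00802). Igfbp6, which binds insulin-like growth factor 2, read 2021 and 1997 against 891 and 821, 2.28-fold lower (adjusted p = 0.0492). With spike-in scaling 1 of the 2 falls remained past the threshold. Tgfb3, a transforming growth factor, read 1731 and 2371 against 1074 and 913 (adjusted p = 0.143), and its intracellular mediator Smad3 576 and 571 against 208 and 187 (adjusted p = 0.390). Both were lower in both healing arrays and did not pass.

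Cytoskeletal genes moved in both directions. Of 25 actin and microtubule genes, 2 rose and 1 fell, with a median of 0.02. Tuba1b, an alpha-tubulin, read 7674 and 6163 in control and 20992 and 15393 in healing ligament, 2.60-fold higher (adjusted p = 0.0126), and Tmsb4x, the actin-sequestering thymosin beta 4, 17164 and 18711 against 33678 and 29109, 1.75-fold higher (adjusted p = 0.0492). Actg1, the cytoplasmic gamma-actin, fell 3.96-fold (adjusted p = 0.00607), and Actb, beta-actin, read 8652 and 11113 against 5688 and 5142 without passing (adjusted p = 0.135). Actin genes share long stretches of sequence, so the probe sets may take signal from more than 1 of them. A further 15 tested probe sets have several symbols of which at least 1 is in the actin and microtubule list. Of these, 1 rose and 1 fell, and with spike-in scaling 1 rose and 0 fell. The rise was on rc_AA892333_at, with alpha-tubulin symbols (4.88-fold, adjusted p = 0.000828). The fall was on rc_AI070848_f_at, with actin symbols (3.34-fold, adjusted p = 0.0135). S100 proteins, annexins and galectins gave 2 rises and 0 falls among 17, with a median of −0.07 (0.32 with spike-in scaling): Lgals3 and S100a4, a calcium-binding protein of motile fibroblasts, at 7146 and 6672 against 14772 and 13068, 2.01-fold higher (adjusted p = 0.0230). Smooth muscle and myofibroblast genes gave 0 calls in limma among 10 (3 higher and 1 lower at an unadjusted p under 0.05), with Acta2, the actin that marks myofibroblasts, at 800 and 899 against 1999 and 1415 (adjusted p = 0.194). Integrins and adhesion receptors gave 0 among 27 (4 higher and 0 lower unadjusted).

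Skeletal muscle markers included 1 rise and 0 falls among 34 tested, with a median of 0.04. Acta1, skeletal alpha-actin, read 1164 and 1026 in control and 2660 and 2405 in healing ligament, 2.26-fold higher (adjusted p = 0.0453), a call that held in 6 of 12 other settings and in 0 of the 4 fits without an array. The fast and embryonic myosin heavy chains Myh4 and Myh3 had log2 differences of 0.99 and 0.80 (adjusted p = 0.116 and 0.125), while the muscle creatine kinase Ckm read 1146 and 1582 against 1282 and 1242. A probe set outside the list, S68736_at, whose several symbols are all skeletal myosin heavy chains, rose 4.88-fold, from 1050 and 903 to 5444 and 4462 (adjusted p = 0.00284). The part of muscle RNA in the other results was not tested.

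Lipid and energy genes held a few rises. Of 24 lipid and adipocyte genes, 2 rose and 0 fell, with a median of 0.15: Apoe and Lpl, the lipase that frees fatty acids from lipoproteins, at 973 and 1862 in control and 5236 and 5422 in healing arrays, 3.86-fold higher (adjusted p = 0.0123). The fatty acid carrier Fabp5 missed the threshold at 408 and 374 against 1993 and 1584 (adjusted p = 0.0700), and the adipocyte hormone Lep overlapped between groups. Of 23 glycolysis and glucose transport genes, 1 rose and 0 fell, with a median of 0.25: the enolase Eno1, at 3409 and 3651 against 9925 and 7294, 2.39-fold higher (adjusted p = 0.0186). The glucose transporter Slc2a1 had a larger log2 difference, 2.76 ± 0.61, from 256 and 334 to 2247 and 2242, but did not pass (adjusted p = 0.0548). Of 3 tested probe sets with several symbols of which at least 1 is in the glycolysis list, 0 rose and 1 fell, and 0 fell with spike-in scaling. The fall was on M17701_s_at, whose symbols are Gapdh and its copies, from 1718 and 1072 to 467 and 406 (adjusted p = 0.0499). Among 66 genes of the respiratory chain, ATP synthase and the citrate cycle, 2 rose and 0 fell, with a median of 0.20: Atp5po, a stalk subunit of ATP synthase, rose 3.34-fold and Cox4i1, a subunit of cytochrome oxidase, 2.85-fold on their brightest probe sets (adjusted p = 0.0453 and 0.00646).

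Of 37 antioxidant, metallothionein and iron genes, 2 rose and 0 fell on their brightest probe sets, with a median of 0.03. Mt3, a metallothionein known from brain, read 1317 and 894 in control and 4712 and 3582 in healing ligament, 3.67-fold higher (adjusted p = 0.0135). Selenop, the secreted selenium carrier, read 566 and 362 against 1941 and 1738, 3.77-fold higher (adjusted p = 0.0485). Another 9 tested probe sets have several symbols of which at least 1 is in this list, and among these 1 rose and 1 fell. Both carry symbols of the iron store ferritin: rc_AI169802_at, with heavy chain symbols, rose 2.82-fold (adjusted p = 0.0139), and rc_AI231807_at, most of whose symbols are light chain copies, fell from 9447 and 8508 to 627 and 264, a log2 difference of −4.30 (adjusted p = 0.000535). That was the largest fall of all probe sets, and it passed in all 4 fits without an array.

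Most called ribosomal protein genes fell. Of 42 tested, 1 rose and 6 fell, but 24 had positive differences and the median was 0.10. The falls were Rps10, Rpl6, Rps16, Rpsa, Rplp0 and Rpl7a. Rps10, of the small subunit, read 2740 and 2746 in control and 814 and 650 in healing ligament, a log2 difference of −1.85 ± 0.25 (adjusted p = 0.00417). Rplp0, the stalk protein often used as a reference gene, read 17082 and 15778 against 7572 and 6653 (−1.20 ± 0.18, adjusted p = 0.00807). Rpl39 was the rise, from 5739 and 3832 to 10750.4 and 11802 (adjusted p = 0.0455). With spike-in scaling the list had 4 rises and 1 fall and a median of 0.50, so the balance of directions turned with the scaling. A further 39 tested probe sets have several symbols with a ribosomal protein gene among them. Of these, 0 rose and 10 fell, with a median of −0.17, and with spike-in scaling 1 rose and 6 fell, with a median of 0.23. For them the called balance stayed on the side of falls, while the median changed sign. One of them, X57432cds_s_at, whose symbols are copies of 1 small-subunit gene, read 7864 and 8870 in control and 932 and 1408 in healing ligament (−2.82, adjusted p = 0.000223). These genes have near-identical copies in the genome, and a probe set can take signal from several of them.

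The remaining lists gave 0 calls on brightest probe sets in limma. Translation factors had 2 higher and 1 lower at an unadjusted p under 0.05 among 18 tested, and proteasome and ubiquitin genes 5 and 2 among 29. Immediate early and glucocorticoid response genes had 4 higher and 4 lower among 28, with Fos, a subunit of AP-1, at 3664 and 3541 in control and 2074 and 1575 in healing ligament (adjusted p = 0.0553). Cell cycle genes had 1 higher and 2 lower among 31, and cyclin D1 (Ccnd1) overlapped between groups. Erythroid, endothelial and nerve markers had 2, 1 and 1 higher and 0, 1 and 1 lower among 8, 12 and 23. Summed intensities of the 8 erythroid genes were 8014 and 5396 in control and 8873 and 7811 in healing ligament, and 1 of them rose with spike-in scaling. A probe set with several symbols, all of them beta globins (rc_AI179576_s_at), rose 4.07-fold, from 5554 and 4215 to 24089 and 16300.3 (adjusted p = 0.00234), and passed in all 4 fits without an array. The part of blood RNA in the other results was not tested.

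**Figure D3:**
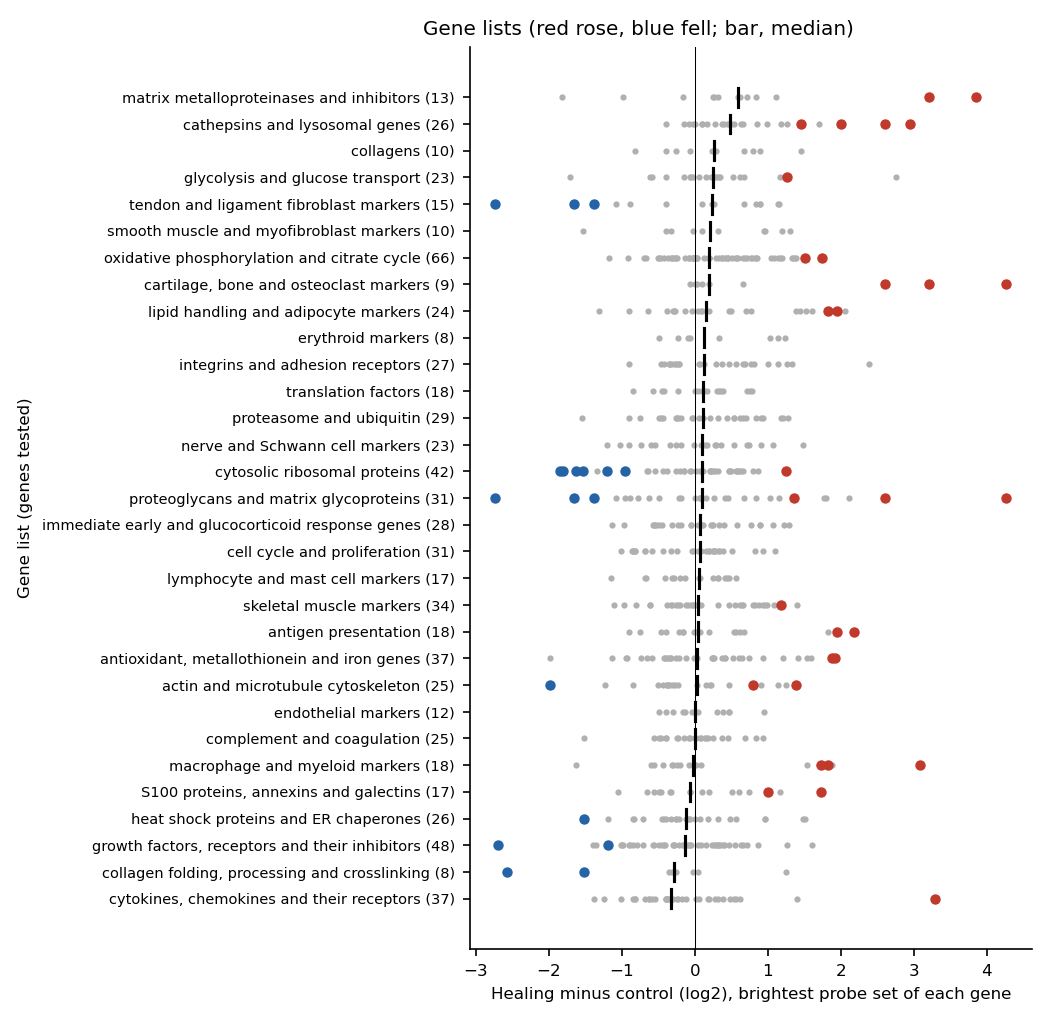
Log2 difference between healing and control ligament (x axis) of the brightest tested probe set of each gene in 31 gene lists (y axis, number of tested genes in brackets), ordered by median. Red points rose, blue points fell, grey points did not pass, and the bar is the median; metalloproteinases (median 0.59) and lysosomal genes (0.48) lie at the top and cytokines (−0.33) at the bottom.

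How far a call rests on one probe set could be read for genes with several. The 5244 tested probe sets included 4175 that name 1 gene, and these covered 3228 genes, 2487 with 1 tested probe set and 741 with more. Of the 106 calls, 67 fell on such probe sets and named 65 genes, 39 of which rose and 26 fell. Among these 65 genes, 31 had 1 tested probe set and 34 had several. The other 39 calls, 15 higher and 24 lower, were on probe sets that the table gives several symbols (17) or none (22), and they name no gene here; those with several symbols are described above by family where it bears on a group, a choice made after the values were seen.

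The 31 genes with 1 tested probe set comprised 21 that rose and 10 that fell. For 28 of them the array holds no other probe set that names 1 gene, so the check cannot be made with such probe sets. Eno1, Gtf2ird1 and Snrnp70 have another that was too dim to test. Probe sets with several symbols were not counted here. Among the called ones, X15013cds_at carries a symbol of Rpl7a (log2 difference −3.53), rc_AI070848_f_at of Actg1 (−1.74) and rc_AA892333_at of Tuba1b (2.29). Each moved in the direction of the gene's own call. Spp1, Mmp12, Mmp13, Cxcl13, Lyz2, Ctsk, Ctss, B2m, Lgals3, Comp and Pcolce all belong to this class. Of the 10 largest rises that name 1 gene, 8 rest on the gene's only tested probe set, as do 3 of the 10 largest such falls (Comp, Nbl1 and Pcolce).

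Of the 34 genes with several tested probe sets, 2 had at least 2 past the threshold in 1 direction. Eef2, the factor that moves the ribosome along the messenger, had 4 probe sets, all lower in both healing arrays. The brightest read 10913 and 10394 in control and 7350.4 and 6878 in healing ligament (log2 difference −0.58, adjusted p = 0.135), the next 8781 and 7494 against 4423 and 3922 (−0.95, adjusted p = 0.0321), another 2865 and 2415 against 863 and 911 (−1.52, adjusted p = 0.0677) and the dimmest 912 and 1176 against 153 and 118 (−2.58, adjusted p = 0.0234). The direction held in all 4, while the size grew as the probe set dimmed, and brightest and dimmest differed by 2.00 ± 0.40 (adjusted p = 0.0140). Sparc fell on 2 probe sets, with log2 differences of −1.66 and −1.22 (adjusted p = 0.00121 and 0.0414). Its remaining tested probe set went against these, at 5514 and 4567 in control and 5647 and 5198 in healing ligament, and differed from the brightest by 1.77 ± 0.27 (adjusted p = 0.00353).

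In 16 genes 1 probe set passed and each of the others had the same sign. The 8 rises were Atp5po, Grn, Lpl, Odc1, Rab28, RT1-Da, Selenop and Ywhah, and the 8 falls were Bgn, Capns1, Gpx3, Nfix, Ppib, Rpl6, Rps3 and Rpsa. On a probe set that did not pass, the groups overlapped in Odc1, Rab28, Selenop, Capns1 and Rpsa, so the shared sign carries little weight there. That of Odc1 read 66.9 and 621 against 92.7 and 933, and that of Selenop 299 and 49.3 against 176 and 172. In several of the 16 genes the second probe set moved by a like amount. Lpl had log2 differences of 1.95, 1.25 and 0.84 on its 3 probe sets. Bgn had −1.38 and −1.19, Ppib −1.52 and −1.89, Rpl6 −1.81 and −2.28, and Atp5po 1.74 and 1.32. In others the second probe set barely moved. Grn, the precursor of the granulins made by macrophages, rose 5.62-fold on one probe set, from 1236 and 679 to 5929 and 4864, and read 919 and 921 against 1380.4 and 959 on the other, a difference between the probe sets of 2.18 ± 0.51 (adjusted p = 0.0386). Rps3 and Rpsa had −1.58 and −1.53 on one and −0.14 and −0.12 on the other (adjusted p of the difference = 0.0246 and 0.0416).

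The other 16 genes had a probe set of opposite sign: Apoe, Atp6v0c, Cox4i1, Fn1, Lta4h, Map2k1, Pgam1, Psap, Psmb4 and Tpm1 among the rises, and Atp5f1e, Col1a1, Eef1a1, Gpx1, Hsp90ab1 and Psmb5 among the falls. On the probe set of opposite sign the groups overlapped in Apoe, Atp6v0c, Map2k1, Psmb4, Col1a1 and Eef1a1, so that sign carries little weight there. In Apoe and Map2k1 its log2 difference was −0.09 and −0.08. Psap rose 7.70-fold on the brightest of 3 but read 488 and 451 against 318 and 325 on another and 227 and 260.1 against 204 and 205 on the dimmest. Both differed from the brightest, by 3.44 ± 0.46 and 3.15 ± 0.55 (adjusted p = 0.00238 and 0.00716). Psmb5, a catalytic subunit of the proteasome, read 584 and 526 in control and 55.7 and 27.8 in healing ligament on one probe set, and 1882 and 1514 against 2910 and 3700.3 on the other (adjusted p = 0.105). That gave the largest gap between probe sets past the threshold, 3.74 ± 0.59 (adjusted p = 0.00353). Atp5f1e, a small subunit of ATP synthase, fell 4.61-fold on one (adjusted p = 0.00538) and was higher in both healing arrays on the other, at 3320 and 3523 against 5969 and 5720 (adjusted p = 0.135).

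Col1a1 fell on 1 of its 4 probe sets, from 5328 and 5623 to 2340 and 1769 (−1.41 ± 0.22, adjusted p = 0.0122). A second was lower at 4230.3 and 3953 against 2132 and 1425 (−1.21, adjusted p = 0.0831). The 2 brightest had log2 differences of 0.23 and −0.13 and overlapped between groups, so the call describes dimmer probe sets of a gene whose bright ones did not pass. Fn1 rose on 1 of 3, with 0.11 and −0.99 on the others. Eef1a1, the factor that brings aminoacyl-tRNA to the ribosome, fell 6.72-fold at 885 and 1036 against 72.4 and 143 on one and read 9546 and 7250 against 9680.1 and 9048 on the other. Gpx3, the secreted glutathione peroxidase, was the largest fall with 1 symbol at 1132 and 1549 against 55 and 109 (−3.45 ± 0.58, adjusted p = 0.0143), while its brighter probe set had −0.43; the signs agreed, but the probe sets differed by 3.03 ± 0.52 (adjusted p = 0.00633).

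All tested probe sets had 1 sign in 17 of the 34 genes (50%), against 360 of all 741 genes with several (48.6%), so the called genes were near the background. Of the 47 probe sets of these genes that did not pass, 28 shared the direction of the call. Over all 947 pairs of a gene's brightest and another probe set, the log2 differences correlated at 0.13 (Pearson) and 0.11 (Spearman); pairs are not independent, since they share arrays and a gene can give several. Rises and falls differed in which probe set carried them. The call was on the brightest probe set for 12 of 18 called rises and for 5 of 18 called falls, and on the dimmest for 4 rises and 10 falls. Brightness was ranked on the mean over all arrays, healing arrays included, so a rise lifts a probe set's rank and a fall lowers it. The split is therefore partly set by the ranking itself, and no conclusion is drawn from it. It was noticed after the values were seen and was not tested.

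**Figure D4:**
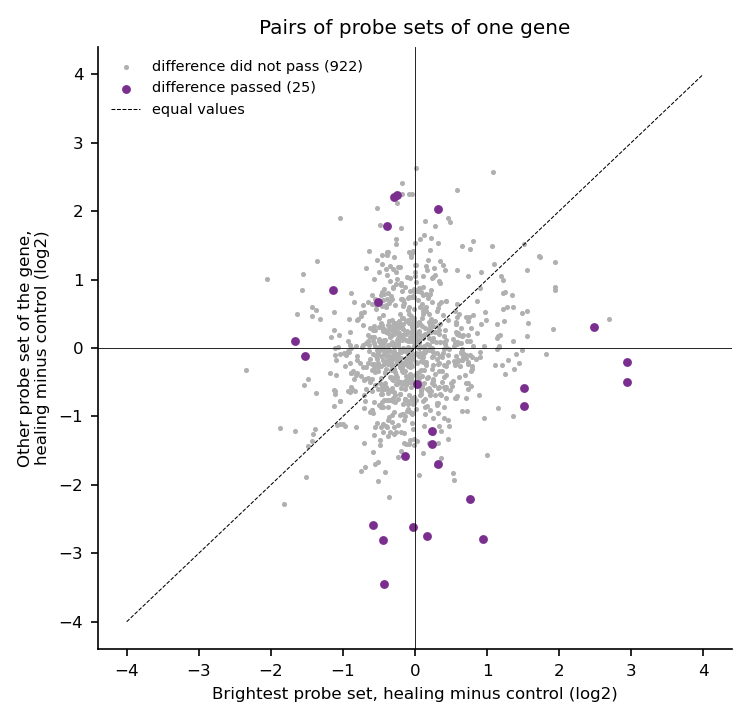
Log2 difference between healing and control of a gene's brightest probe set (x axis) against that of another probe set of the gene (y axis), for 947 pairs. Purple points are the 25 pairs whose difference passed the threshold, and the dashed line marks equal values; the cloud does not follow the line (Pearson 0.13).

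The difference between probe sets of a gene was itself tested. It passed for 25 of 947 pairs (2.64%), in 22 genes, and 17 of the 25 had opposite signs. Of these 25 pairs, 20 involved a called probe set, and 10 joined probe sets made from the same deposited sequence, as did 267 of all 947 pairs. The gap was called in 18 of the 34 genes with a call and several probe sets (52.9%), against 22 of all 741 genes with several (2.97%). The 34 were picked by a call on 1 or more of their probe sets, which by itself favours a gap to the others. In 4 genes it passed although no probe set was called: COX1, Cox8a, Hsp90b1 and Zfp36. For Cox8a, a cytochrome oxidase subunit, the 4 probe sets had log2 differences of −0.51, −0.33, 0.68 and −1.67.

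Averaging a gene's probe sets and fitting again gave a shorter list. At this gene level 27 of 3228 genes were called (0.836%), 15 higher and 12 lower, with 21 of 2487 genes with 1 probe set (0.844%) and 6 of 741 with several (0.810%). For genes with 1 probe set nothing was averaged, yet some lost their call in the new fit. Among them were Mmp13 and Igfbp6 (both limma, adjusted p = 0.0540), Hsd3b7 (0.0541), Sparcl1 (0.0548), and Spn and Tmsb4x (both 0.0639). The rises with several probe sets were RT1-Da (1.42 ± 0.22, adjusted p = 0.0189) and Atp5po (1.53 ± 0.29, adjusted p = 0.0491). The second probe set of RT1-Da read 596 and 672 in control and 1226 and 1215 in healing ligament. The falls were Eef2 (−1.41 ± 0.21), Gpx3 (−1.94 ± 0.30), both with adjusted p = 0.0189, Nfix (−1.62 ± 0.28, adjusted p = 0.0293), a transcription factor of the nuclear factor I family, and Eef1a1 (−1.29 ± 0.22, adjusted p = 0.0304). All tested probe sets had 1 sign in 5 of these 6, the exception being Eef1a1. None of the 6 passed in any of the 4 fits that left out 1 array, where limma called 0 genes with several probe sets and 52 to 61 had an unadjusted p under 0.05. The count of such genes was 0 when the variance prior ignored intensity (65 at an unadjusted p under 0.05), 1 with median centring, 3 with no filter, 10 with the larger offset and 11 with a filter at 60%.

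Further genes with several probe sets of 1 sign had large gene-level values without passing. On the higher side were Cox8b (1.83, adjusted p = 0.294), a muscle and brown fat form of a cytochrome oxidase subunit, Mdh2 (1.53, adjusted p = 0.259), the mitochondrial malate dehydrogenase, and Hspe1 (1.52, adjusted p = 0.229), the mitochondrial chaperonin partner. On the lower side were Rpl6 (−2.04, adjusted p = 0.0548), Ppib (−1.70, adjusted p = 0.124) and Slc32a1 (−1.52, adjusted p = 0.452), a vesicular transporter of inhibitory amino acids. Rpl6 read 6567 and 6878 in control and 934 and 1944 in healing ligament on its other probe set. Grn (1.40, adjusted p = 0.0541), Lpl (1.35, adjusted p = 0.0880) and Bgn (−1.28, adjusted p = 0.142) kept their sign on each probe set but did not pass at gene level, and Sparc (−0.92, adjusted p = 0.0548), with 1 probe set against the other 2, did not pass either.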

How the data were processed

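RNA from medial collateral ligaments was measured on 8 single-colour arrays of 8799 probe sets, 2 for each of 4 groups. The deposited values are intensities; their trimmed means (2% off each end) of 500.3 to 500.6 show that the arrays share a common scale, and the summarising software is not given in the sources used here. Values were turned into log2(intensity + 45.8), the offset being the 10th percentile of all values, and the 59 control probe sets and the 40% with the lowest mean were left out. limma 3.58.1 in R 4.3.3 (lmFit, eBayes with intensity trend) was fitted to all 8 arrays with 1 mean per group, two-sided, Benjamini-Hochberg adjusted over everything tested, threshold 0.05. The same fit was run on gene means and on differences between a gene's probe sets, and was tested on simulated data. The number of arrays limits precision.

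The probe table pairs 7018 probe sets with 1 symbol, 308 with several and 1473 with none. Named are the 10 largest rises and falls, all called genes with several probe sets, the largest gene-level changes and probe-set differences, and up to 4 called members of each of 31 lists (the 2 brightest where none was called); other list members, and probe sets with several symbols, were picked after their values were seen. Members and lists were chosen with earlier results of these data known. Alternatives were scaling, offset, filter, variance prior, replicate block, groups fitted and leaving out arrays.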

Additional observations from a re-analysis of the deposited data

How the results depend on the processing

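Calls between healing and sham ligament numbered 106 (54 higher, 52 lower) at probe-set level, 27 at gene level and 25 for differences between probe sets. Median centring gave 64 and 13 for the first 2, leaving out the low-intensity filter 70 probe sets, and a variance prior without the intensity trend 29, 3 and 3. Quantile normalization gave 16 differences. At gene level, spike-in scaling gave 45 (39 higher, 6 lower), an offset 4 times as large 48, and the fit without the unloaded controls 41. Leaving out 1 loaded array at a time gave 27 to 37 probe sets, 4 to 5 genes and 0 to 13 differences; the lone array left in a group is assumed to vary like the other groups. The 0 came without healing array 1, where limma had 89 differences at an unadjusted p under 0.05, and the cause was not tested. The other alternatives stayed within 1.5 times of these counts. None of the 106 called probe sets changed sign in any setting that tested it. Of these, 24 passed in all 12 settings that kept all loaded arrays, and 11 in every setting run, among them Spp1, Lyz2 and Psap. With the replicate number as a block, 123 probe sets, 26 genes and 29 differences were called; the labels tie the numbers to no animal, deviations of same-numbered loaded arrays correlated at 0.20, and the arrays share only a number. Probe sets near the floor, such as Mmp13 in control ligament, have the least certain size.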

Other observations

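A few probe sets separated arrays by number rather than by injury. Among the 5244 tested, 30 differed by more than 2 in log2 between the 2 arrays of the control group and also between the 2 arrays of the healing group, and 27 of these went the same way in both groups, with array 2 the higher in 26. Cdo1, cysteine dioxygenase, read 289 and 5586 in the control arrays 1 and 2 and 197 and 3859 in the healing arrays 1 and 2. Kdr, the main receptor for vascular endothelial growth factor, read 131 and 3105 in control and 257 and 3450.2 in healing arrays. Both probe sets of Gadd45a, a stress-induced gene, showed the split, at 216 and 2479 against 299 and 2337 on one and 335 and 2618 against 329 and 2602 on the other. The liver genes Apob and Cyp2c13 had it too, with Apob at 241 and 3956 in control and 327 and 3572 in healing arrays. In the unloaded rats Kdr read 2647 and 3724 in the 2 control arrays and 245 and 3546 in the 2 healing arrays, so its level was low on 3 of 8 arrays. None of the 27 differed past the same limit in the same direction within both unloaded groups. These genes were chosen after their values were seen, and what sets the 3 low arrays apart was not tested.

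Some of the strongest signals name no gene here. The largest rise without a symbol was on rc_AA894029_at, from 136 and 32.6 to 2231 and 1725 (limma, adjusted p = 0.00383). A probe set without a symbol, rc_AA892248_g_at, carries in its name the same sequence number as the brightest Sparc probe set, and fell by 1.17 in log2, from 51222 and 46922 to 23763 and 19883 (limma, adjusted p = 0.0287).

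Probe sets made from one deposited sequence did not always agree. Over 323 such pairs among the tested probe sets, 173 had the same sign (53.6%), and the log2 differences correlated at 0.18 (Pearson, over pairs that share arrays). In 20 pairs at least 1 probe set was called, in 2 both were, and in 13 the signs agreed. Lta4h, the hydrolase that makes leukotriene B4, read 1966 and 1973 in control and 1426 and 1796 in healing ligament on one probe set, and 248 and 260.1 against 1278 and 1408 on the other.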
